A study of Rattus norvegicus with 72 samples.

Results

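The comparison described here is that of the Ube3a deletion with wild type (WT) in hypothalamus RNA libraries labelled maternal from female rat pups on postnatal day 2 (P2). Its members were chosen by their labels and are 6 libraries, 3 from deletion pups and 3 from WT pups, out of 72 libraries in the series and 24 of hypothalamus RNA. Every group used here is from female rats, and the labels of the groups differ only in parent of origin (maternal or paternal), age (P2 or P9) and genotype (deletion or wild type). The WT pups are litter-matched controls, per the series description, and WT libraries carry a parental label too. The labels do not say which part of the gene was deleted, and they name no litter, no strain and no promoter or transgene. Replicates are numbered in the order of the sample records, so a number only names a library. No label ties a library to an animal of its own, so the tests see only how far these samples spread, which may be technical.

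Ube3a encodes an E3 ubiquitin ligase, an enzyme that attaches ubiquitin to proteins and so marks many of them for breakdown by the proteasome. In most neurons the copy inherited from the mother is expressed and the paternal copy is silenced by a long antisense transcript, while many non-neuronal cells use both copies. Loss of the maternal copy in humans causes Angelman syndrome, and the hypothalamus is the brain region that governs feeding, sleep, body temperature and pituitary hormones. Labels of parental origin can therefore be set beside the level of Ube3a RNA. The deposited tables count reads per RefSeq accession of other species and pair no accession with a gene name. Only NM_173010, the mouse accession of Ube3a, is named here, and the rest stand as accessions.

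Depth in the 6 libraries was low. Totals ran from 269469 to 599865 counts in WT and from 302435 to 493633 counts in deletion libraries, against 685454 to 1019909 counts over the 6 P2 libraries labelled paternal. WT replicate 1 stood apart from the other WT libraries, with 599865 counts against 288195 and 269469. In that library the accession with the most counts, NR_137294, took 9.33% of counts, and it took 18.1% and 17.4% in WT replicates 2 and 3. The deletion libraries lay between them, at 14.7%, 13.3% and 15.5%. Other noncoding (NR_) accessions took 7.72%, 6.59% and 5.15% of counts in WT and 7.35%, 6.79% and 7.35% in deletion libraries. By an exact permutation test of means over the 6 libraries (two-sided, smallest possible p of 0.1), the groups gave p = 0.8 for total counts, p = 1 for the share of NR_137294 and p = 0.6 for the share of other NR_ accessions. All 3 adjusted p-values over these descriptors were 1. The accession with the second most counts, NM_001097928, stood at 35064, 50950 and 48255 CPM (counts scaled to a common library size, with TMM factors) in WT and at 33362, 40203 and 45137 CPM in deletion libraries, so the groups overlapped for NM_001097928. In the P2 libraries labelled paternal, NR_137294 took 10.2%, 5.03% and 4.80% of counts in WT and 7.63%, 4.85% and 4.64% in deletion libraries. Apart from WT replicate 1 labelled maternal, these shares were lower than with the label maternal.

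Ube3a RNA was not detectably lower in the deletion libraries labelled maternal at P2. NM_173010 had 50, 16 and 7 counts in WT replicates 1 to 3, which is 80.7, 61.2 and 28.7 CPM. In the deletion libraries it had 9, 31 and 24 counts, or 30.6, 64.9 and 63.5 CPM. The groups thus overlapped for NM_173010, and each held a library near 30 CPM. The 2 lowest libraries rested on few counts: the 95% Poisson interval, which covers counting error only, was 11.6 to 59.2 CPM for NM_173010 in WT replicate 3 and 14.0 to 58.0 CPM in deletion replicate 1. The mean level of NM_173010 was 56.9 ± 26.2 CPM for WT against 53.0 ± 19.4 CPM with the deletion (SD, n = 3 each). Its log2 fold change, deletion over WT, was -0.15 (SE 0.338, 95% interval -0.84 to 0.54, unadjusted p = 0.665, adjusted p = 0.9997 in edgeR, a quasi-likelihood F-test with Benjamini-Hochberg adjustment over 5840 accessions). The interval reached from 0.559 to 1.46 of the WT level for NM_173010, so a modest change in either direction was not detectable at this depth. Its sign turned with single libraries: without WT replicate 1 the log2 fold change of NM_173010 was 0.25, without deletion replicate 1 it was 0.10, and without WT replicate 3 it was -0.41. In bulk tissue, fewer cells that express a gene and less of its RNA per cell cannot be told apart.

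**Figure D1:**
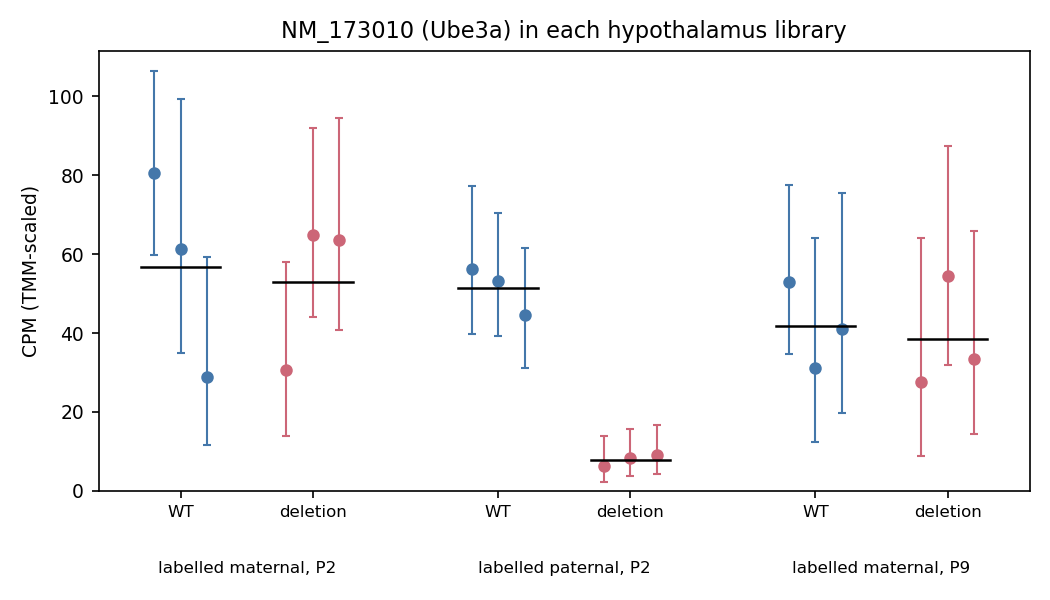
NM_173010 (Ube3a) in CPM on the vertical axis for each library of 3 pairs of groups, with WT in blue and deletion in red; points are libraries, vertical bars are 95% Poisson intervals of the count and black lines are group means (n = 3). WT and deletion overlap with the label maternal at both ages, while the 3 deletion libraries labelled paternal at P2 (6.33 to 9.07 CPM) sit below the 3 WT libraries (44.5 to 56.3 CPM).

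The same accession separated the genotypes in the P2 libraries labelled paternal, which share no library with the comparison above. Its levels there were 56.3, 53.2 and 44.5 CPM for WT against 6.33, 8.26 and 9.07 CPM for the deletion, without overlap, a log2 fold change of NM_173010 of -2.66 (95% interval -3.40 to -1.93, adjusted p = 0.000261 in edgeR's quasi-likelihood fit). The interval for the label maternal (-0.84 to 0.54) therefore excluded a fall of NM_173010 of that size. The difference of the 2 deletion effects at P2, labelled maternal minus labelled paternal, was 2.51 for NM_173010 on the log2 scale (SE 0.495, 95% interval 1.5 to 3.53), with the smallest unadjusted p of all accessions, 2.24e-05, and an adjusted p of 0.131 (edgeR quasi-likelihood). That difference thus did not pass the threshold of 0.05 after adjustment over 5840 accessions. It passed without deletion replicate 1 labelled maternal, at 2.76 and an adjusted p of 0.0359 in edgeR. Over the alternative settings, which left out no P2 library, edgeR's and DESeq2's adjusted p ran from 0.0564 to 0.9999. Drawing every library down to the smallest total gave a difference of 1.53 for NM_173010 (adjusted p = 0.9999 in edgeR).

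The paternal copy is silenced in most neurons, so a lower level of Ube3a RNA would be looked for first with a deletion on the maternal copy. The levels of NM_173010 at P2 were the other way round. Many non-neuronal cells use both copies, these are bulk libraries, and the cause was not tested. The fall was in the libraries labelled paternal and was not seen in those labelled maternal. At P9 the genotypes also did not overlap in the libraries labelled paternal. NM_173010 was there at 48.6, 52.8 and 37.0 CPM for WT against 7.09, 2.61 and 6.78 CPM for the deletion. The deletion genotype of the 3 libraries labelled maternal is therefore not checked by this accession, and every direction given below holds for the labels as deposited. Whether the counting used strand is not given in the sources used here. If it did not, reads of Ube3a and of its antisense transcript cannot be told apart in NM_173010, and the labels do not say whether the counted part lies inside the deletion.

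At P9, in libraries labelled maternal, Ube3a also overlapped between genotypes. NM_173010 was at 53.0, 31.1 and 41.1 CPM in the WT and 27.5, 54.6 and 33.5 CPM in the deletion libraries of that age. The log2 fold change of NM_173010 was -0.11 at P9 (95% interval -0.92 to 0.70). The difference of deletion effects with this label, P9 minus P2, was 0.03 (SE 0.522, 95% interval -1.04 to 1.10, adjusted p = 1 in edgeR's quasi-likelihood fit), and at neither age was a difference in NM_173010 larger than the spread between libraries labelled maternal.

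Across the transcriptome no accession passed the threshold for deletion against WT in the 6 libraries. After Benjamini-Hochberg adjustment, edgeR's quasi-likelihood F-test called 0 of 5840 accessions (0%), the lowest adjusted p was 0.9997, and DESeq2's Wald test also called 0. At an unadjusted p under 0.05 there were 97 accessions (1.66%), of which 41 were higher (0.702%) and 56 lower (0.959%) in deletion libraries. Evenly spread p-values would give 292. The deletion comparisons labelled paternal at P2 and labelled maternal at P9 had 123 (2.11%) and 172 (2.95%) such accessions. The p-values ran large as a whole: 264 of the 5840 accessions had a p of at most 0.1 and 794 had a p above 0.9, where even spread gives 584 in each such step. The count at an unadjusted p under 0.05 was higher in each of the 6 fits that left out a library, from 116 to 221. These fits also tested other sets of accessions. The count was 221 of 5945 without WT replicate 1 and 162 of 6315 without deletion replicate 2. The cause was not tested. Neither fit called an accession after adjustment, and edgeR made 0 calls in all 6 fits that left out a library.

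Deletion and WT libraries did not overlap in 179 accessions that were higher (3.07%) and 197 that were lower (3.37%) with the deletion. The directions were thus near balance. With 3 libraries in each group, random order without ties would separate the groups in about 292 of the 5840 accessions in each direction. Neither count exceeded that number, and the 2 sets are given as a description. The 179 higher accessions had a median log2 fold change of 0.60 and the 197 lower ones of -0.61, and both sets lay at low levels, with a median of 33.0 and 33.9 CPM against 41.9 CPM for all accessions tested. Of them, 26 and 37 had an unadjusted p under 0.05. Over all 5840 accessions the median log2 fold change was 0.00, with quartiles at -0.20 and 0.20, and 176 accessions (3.01%) had fold changes beyond 2-fold, 87 higher and 89 lower. Protein-coding (NM_) accessions had a median log2 fold change of -0.01 (n = 5366) and noncoding (NR_) accessions of 0.08 (n = 474).

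**Figure D2:**
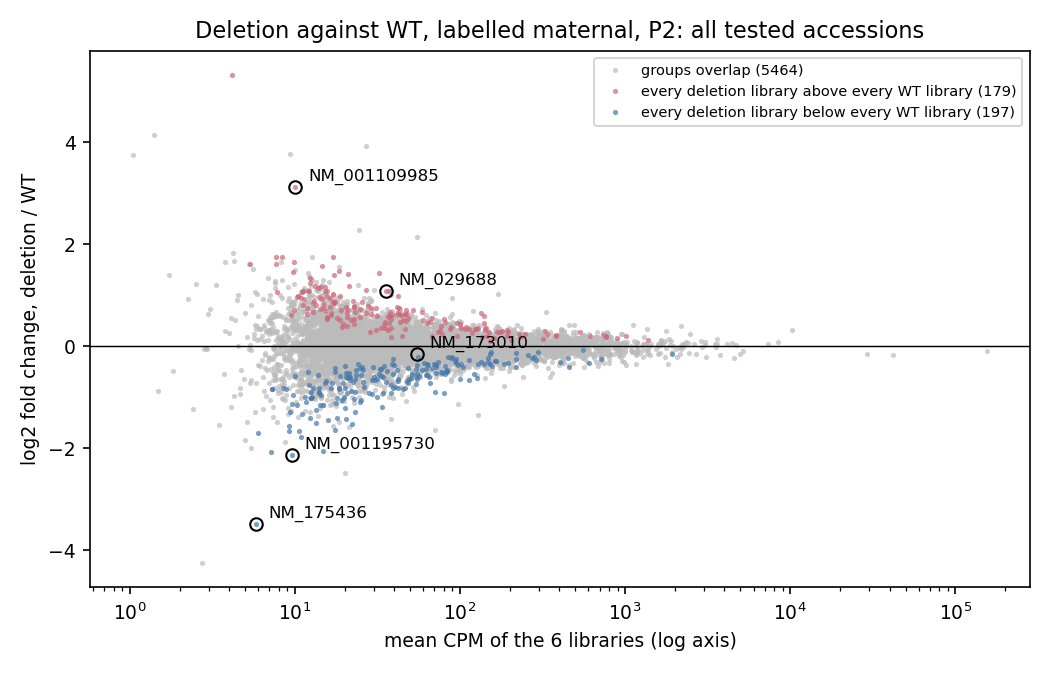
Log2 fold change of deletion over WT (vertical axis) against the mean CPM of the 6 libraries (horizontal log axis) for the 5840 accessions tested; red and blue points are the 179 and 197 accessions whose deletion libraries all lie above or below all WT libraries, and circles mark the accessions named in the text. Large fold changes sit at low levels, on both sides of 0, and NM_173010 lies near 0.

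The 4 accessions named here had the smallest p-values in each direction among accessions whose groups did not overlap. They were picked for this difference, none passed the threshold (edgeR gave each an adjusted p of 0.9997), and their values are a description. No table used here gives their gene names, and no other accession matched any of them in counts across libraries to within a summed difference of 10%.

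On the higher side, NM_001109985 had 1, 1 and 0 counts in WT and 10, 5 and 4 counts in deletion libraries. These counts are 1.61, 3.82 and 0 CPM in WT and 34.0, 10.5 and 10.6 CPM with the deletion. Summed over libraries, the ratio of NM_001109985 in deletion to WT was 9.29, with a 95% counting interval of 2.24 to 82.2, since the WT sum is only 2 counts. Among the WT groups, the mean of NM_001109985 was lowest with the label maternal at P2, at 1.81 ± 1.92 CPM. It was 10.9 ± 4.15 CPM in WT labelled paternal at P2 and 14.6 ± 5.0 CPM in WT labelled maternal at P9 (SD, n = 3 each). WT libraries labelled paternal at P9 were closer, at 6.08, 6.72 and 5.28 CPM.

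NM_029688 was measured on more counts, with 20, 4 and 4 in WT and 10, 26 and 23 in deletion libraries. Its levels were 32.3, 15.3 and 16.4 CPM in WT and 34.0, 54.4 and 60.9 CPM with the deletion, so the lowest deletion library lay just above the highest WT library. The log2 fold change of NM_029688 was 1.09 (SE 0.313, 95% interval 0.45 to 1.73). At P9 with the same label its levels were 106 ± 4.66 CPM for WT against 87.1 ± 20.3 CPM for deletion (SD, n = 3 each), with a log2 fold change of NM_029688 of -0.30.

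On the lower side, NM_001195730 had 10, 5 and 3 counts in WT and 1, 2 and 1 counts in deletion libraries, or 16.1, 19.1 and 12.3 CPM against 3.40, 4.18 and 2.65 CPM. The ratio of WT to deletion for NM_001195730 was 4.60, with a 95% counting interval of 1.52 to 18.7. NM_175436 had 10, 2 and 2 counts in WT and 0, 0 and 1 in deletion libraries, so WT replicate 1 held most of its counts. At 1 count over the 3 deletion libraries, the WT to deletion ratio of NM_175436 was 14.3 with a counting interval of 2.18 to 605. With the label paternal at P2, NM_175436 was at 15.8 ± 7.31 CPM for WT against 13.5 ± 3.06 CPM for deletion (SD, n = 3 each).

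**Figure D3:**
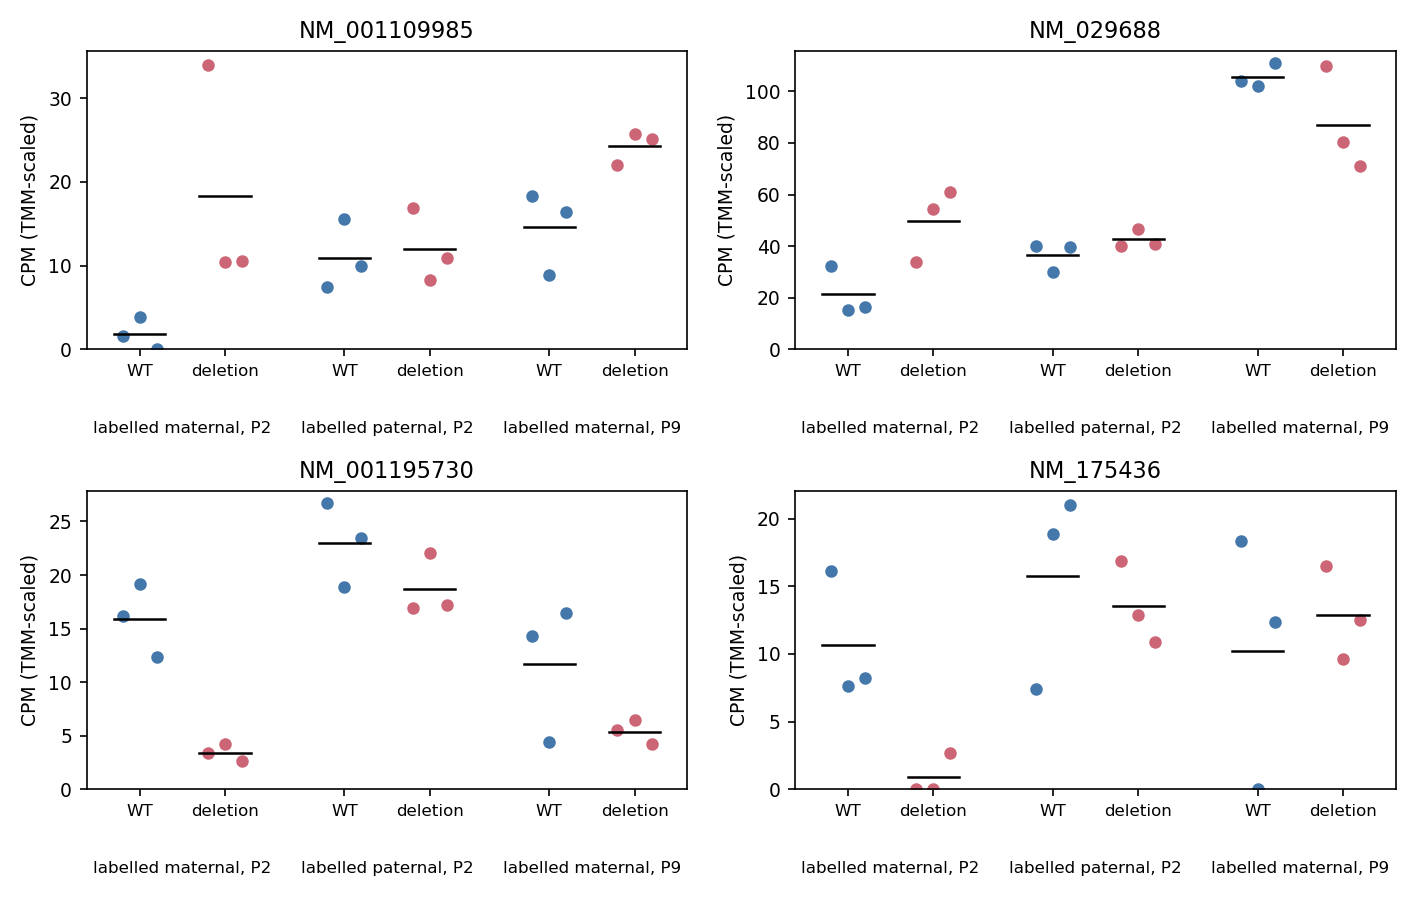
CPM (vertical axes) of NM_001109985, NM_029688, NM_001195730 and NM_175436 in each library of the same 3 pairs of groups, WT in blue and deletion in red, with black lines for group means (n = 3). The genotypes separate in the libraries labelled maternal at P2, where these accessions were chosen, and their fold changes are smaller in the other pairs, though the genotypes also do not overlap for NM_001109985 at P9 and, by a narrow gap, for NM_029688 with the label paternal at P2.

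In the other pairs of groups, the 4 accessions showed smaller differences. Those libraries were not part of the contrast, but they shared its filter and its estimate of spread, so they bore on the choice. With only the 6 libraries fitted, the filter kept NM_029688 and dropped NM_001109985, NM_001195730 and NM_175436. With the label paternal at P2 the log2 fold changes were 0.09 for NM_001109985 (95% interval -0.90 to 1.09), 0.23 for NM_029688 (-0.28 to 0.73), -0.28 for NM_001195730 (-0.91 to 0.34) and -0.25 for NM_175436 (-1.22 to 0.73). With the label maternal at P9 they were 0.67 for NM_001109985 (-0.54 to 1.88), -0.30 for NM_029688 (-0.84 to 0.24), -1.15 for NM_001195730 (-2.40 to 0.10) and 0.06 for NM_175436 (-1.45 to 1.58). All 8 of these intervals included 0, although the groups did not overlap for NM_001109985 at P9 or for NM_029688 with the label paternal at P2, where the highest WT library was at 40.02 CPM and the lowest deletion library at 40.10 CPM. Of the 4 accessions, NM_001195730 and NM_001109985 kept their direction in both other pairs, and NM_029688 and NM_175436 kept it with the label paternal at P2 only.

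The deletion effect itself did not differ between parental labels or ages beyond the threshold. For the difference at P2 between labels, edgeR called 0 accessions (0%) after Benjamini-Hochberg adjustment, DESeq2's Wald test called 0, and 100 accessions (1.71%) had an unadjusted p under 0.05. For the difference between P9 and P2 with the label maternal, edgeR's test called 0 (0%), DESeq2 called 0, and 146 accessions (2.5%) had an unadjusted p under 0.05. Without deletion replicate 3 at P9 a single accession, NM_012018, passed for the age difference (adjusted p = 0.0368, edgeR quasi-likelihood), and it was singled out after its value was seen.

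How large a change these 6 libraries could show depended on the level of the accession. Below 20 CPM the median standard error of a log2 fold change was 0.625, and 1.43% of the 1465 accessions had a 95% interval inside a 2-fold change in either direction. Between 20 and 50 CPM, where NM_029688 lies, the median standard error was 0.428 and that share was 30.2% of 1762. It was 75.1% of 1006 accessions from 50 to 100 CPM, 91.6% of 1293 from 100 to 500 CPM and 94.6% of 314 at 500 CPM or more. Over all accessions, 2792 of 5840 (47.8%) had an interval inside a 2-fold change and 90.9% inside a 4-fold change. These intervals are per accession and unadjusted. They excluded a 2-fold change for most accessions above 50 CPM and included one for most below 20 CPM.

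**Figure D4:**
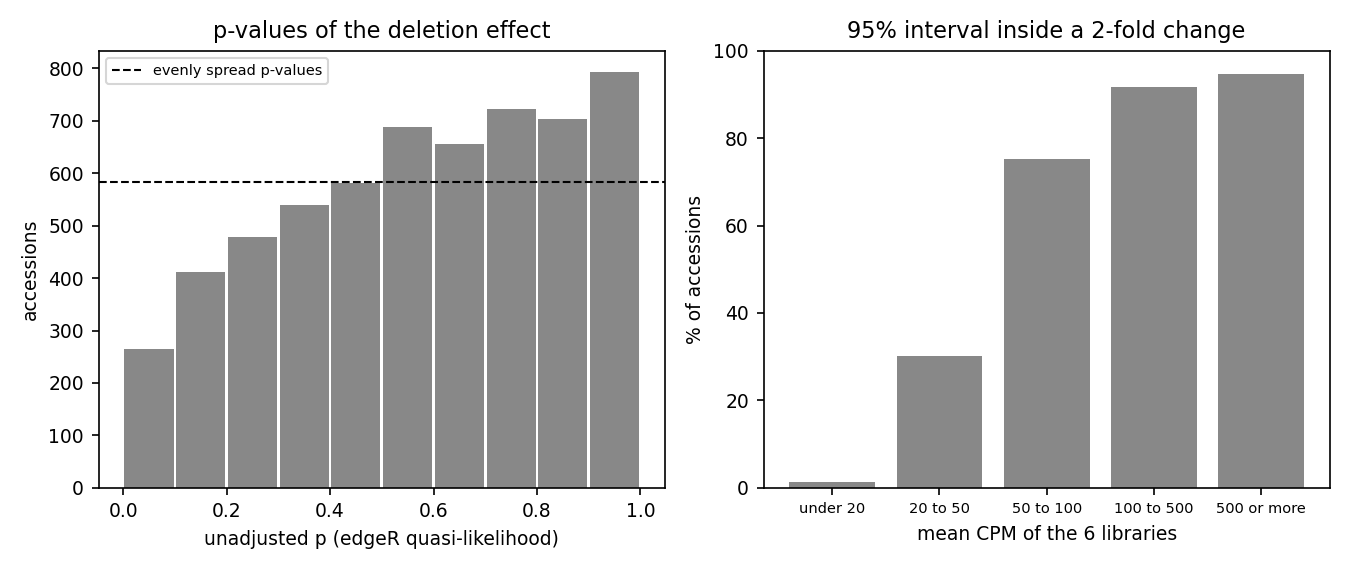
Left, number of accessions per step of unadjusted p for deletion against WT, labelled maternal, P2, with a dashed line at the 584 that evenly spread p-values give; right, share of accessions whose 95% interval of the fold change lies inside a 2-fold change, by mean CPM of the 6 libraries. The p-values pile up toward 1 (794 accessions above 0.9), and the share of bounded accessions climbs from 1.43% below 20 CPM to 94.6% at 500 CPM or more.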

How the data were processed

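RNA of 24 hypothalamus libraries was used, 6 of them in the main comparison. The labels' protocols name an rRNA depletion kit followed by a directional library kit. STAR and the builds rn6 and Rnor_6.0 come from the submitters' processing notes. How reads were counted, on which annotation and with which strand setting is not given in the sources used here. Raw counts per RefSeq accession are what the deposited table holds, for 184444 accessions in all, of which 36259 had counts and 0 matched a rat accession of the RefSeq table used (assembly GRCr8). The planned gene lists and cell type markers were therefore not tested, and the tissue label was not checked by markers. There were 0 unmapped per-sample columns. The cortex and methylation tables were not used here.

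In R 4.3.3, all 24 libraries were fitted together in edgeR 4.0.16 (TMM, filterByExpr, a mean for each of 8 groups, robust quasi-likelihood F-test, two-sided, Benjamini-Hochberg adjustment, threshold 0.05). The filter kept 5840 accessions. Standard errors come from the F statistic. edgeR also bounds p from below by a Poisson test, so at low counts an interval can be narrower than its p. The biological coefficient of variation was 22.3%, with 16 residual degrees of freedom. Alternatives used DESeq2 1.42.0 and limma 3.58.1, and the edgeR code was tested on simulated data. No pair of replicates agreed within sampling noise (lowest chi-square per degree of freedom 1.64 over 24 pairs).

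Named accessions were NM_173010, the 2 of smallest p per direction among accessions whose groups do not overlap, and the 2 with the most counts. The members and lists were chosen with earlier results of these data known. Poisson and binomial intervals are at 95% and cover counting error only.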

Additional observations from a re-analysis of the deposited data

How the results depend on the processing

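No accession was called for deletion against WT under any of 8 alternative settings or in 6 fits without a single library. Some settings changed the scaling or the filter: DESeq2 size factors, no filter on low counts, and at least 10 counts in at least 6 libraries. That last filter kept 5906 accessions, more than the main fit. The others were DESeq2's Wald test, only the 6 libraries, NR_137294 left out, all libraries thinned to the lowest total, and limma-voom with sample weights. Accessions at unadjusted p under 0.05 ran from 39 of 3684 with only the 6 libraries to 452 of 36259 with no filter. With a library left out they ran from 116 to 221. The log2 fold change of NM_173010 ran from -0.30 to -0.13 over the settings and from -0.41 to 0.25 with a library left out. Its difference between labels at P2 kept its sign throughout, from 1.53 to 2.55 over the settings and from 2.25 to 2.91 with a library left out. Its difference P9 minus P2 ran from -0.37 to 0.29 with a library left out. Calls for the differences between labels and between ages ran from 0 to 1 each with a library left out. The deletion minus WT difference ran from -44210 to 120988 in total counts and from -3.24 to 1.15 percentage points in the share of NR_137294 with a library left out. The 4 other named accessions kept their sign in every fit that tested them. They were picked because their groups do not overlap, so leaving out a library could hardly turn a sign, and this is no check of them. Filters dropped some of them: NM_029688 was tested in all 8 settings, NM_001195730 in 6, and NM_001109985 and NM_175436 in 5 each. The cause of these shifts was not tested. Counts summed per gene were not run, because no accession has a name. No paired analysis was possible because the labels give no replicate numbers or litters. Depth limits what can be seen below about 20 CPM, where 2-fold changes were mostly not detectable.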

Other observations

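Accessions with an unadjusted p under 0.05 at P2 were followed into libraries outside this contrast, which shared its filter and its estimate of spread. Of the 97, 48 (49.5%) had the same sign with the label paternal at P2, against 53.3% of all 5840 accessions, and 50 (51.5%) had the same sign with the label maternal at P9, against 49.8% of all. At an unadjusted p under 0.05 in the other comparison there were 2 of the 97 with the label paternal (2.06%, 1 of the same sign), against 2.11% of all accessions, and 3 at P9 (3.09%, 2 of the same sign), against 2.95% of all. Both shares lie near the background.

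The 6 libraries did not group by genotype. Over 5840 accessions, Pearson's r of log2 CPM (prior count 2) ran from 0.888 to 0.933 within WT (3 pairs), from 0.917 to 0.925 within deletion (3 pairs) and from 0.875 to 0.952 between genotypes (9 pairs). These values are across genes of sparse libraries that differ in depth and are given as a description. The highest was between WT replicate 1 and deletion replicate 3. The other WT libraries had lower values with WT replicate 3, at 0.888 and 0.890.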
